A study of Rattus norvegicus with 28 samples.

Results

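A set of 7 genes known from astrocytes was followed through RNA sequencing of 2 rat brain regions. The genes are Gfap (ENSRNOG00000002919), Vim (ENSRNOG00000018087), Aqp4 (ENSRNOG00000016043), Slc1a2 (ENSRNOG00000005479), Slc1a3 (ENSRNOG00000016163), Gja1 (ENSRNOG00000000805) and S100b (ENSRNOG00000001295). They were given as a list of Ensembl IDs with these symbols, and all 7 are among the 15635 genes of the count table. The reference gene table pairs none of the IDs with a symbol, so the names could not be checked against it. The tissue was the nucleus accumbens (NAc), a part of the ventral striatum, and the medial prefrontal cortex (mPFC). All animals were male Sprague-Dawley rats, labelled young adult at 200 to 250 g. All had self-administered cocaine with extended access for 10 days and then received, on both sides of one region, a lentivirus. One virus, lenti-pCDH-H3.3WT, carries the histone variant H3.3, and the other, lenti-pCDH-H3.3Q5A, a form of it in which a glutamine is replaced by alanine. The virus was expressed over 30 days of abstinence before a cocaine-cue seeking test. Each of the 4 combinations of region and virus has 7 libraries, named below by the replicate number in their titles. No group went without virus, surgery or cocaine, so a reaction to the injection itself was not tested. The promoter that drives the H3.3 gene and the cells that took up the virus are not given in the sources used here.

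Astrocytes are glial cells that clear transmitter, buffer ions and water and couple to one another. Gfap and Vim encode intermediate filament proteins, which are known to rise when astrocytes react to injury. Vim is also made by endothelial and other non-neuronal cells. Aqp4 is the water channel of astrocyte endfeet, Slc1a2 and Slc1a3 are the glutamate transporters GLT-1 and GLAST, Gja1 is the gap junction protein connexin 43, and S100b is a calcium-binding protein. In bulk tissue, fewer cells of a type and less RNA per cell cannot be told apart.

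The results turn on Gfap and Vim, so the 250 bases before the RefSeq start of each are shown, from build GRCr8 (the counts were made on rn6, and no coordinate of rn6 is used). Both are written 5′ to 3′ on the strand of the gene. The Gfap window is chr10:88361662-88361911 on the minus strand, 57.6% G or C, and its capitals mark the only match to TTCNNNNGAA, a spacing of the STAT motif, at base -196.
Gfap: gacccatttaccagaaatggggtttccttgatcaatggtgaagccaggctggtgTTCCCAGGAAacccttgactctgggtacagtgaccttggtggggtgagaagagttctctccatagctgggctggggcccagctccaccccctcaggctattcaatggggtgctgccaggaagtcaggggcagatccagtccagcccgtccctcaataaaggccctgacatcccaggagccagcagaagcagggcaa
The Vim window is chr17:81577011-81577260 on the plus strand, 62.4% G or C, and its capitals mark a CCAAT box read on the other strand at base -144 and a TATAAA at base -82.
Vim: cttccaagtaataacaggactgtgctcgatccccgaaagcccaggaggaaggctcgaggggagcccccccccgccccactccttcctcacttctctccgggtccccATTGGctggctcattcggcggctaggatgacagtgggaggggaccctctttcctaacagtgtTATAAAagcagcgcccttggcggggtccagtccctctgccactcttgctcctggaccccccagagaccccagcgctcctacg
The 5 motifs were searched on both strands in 33469 windows of the same length. The TATA box TATAAA is in 12.9% of them and the CCAAT box in 34%. The STAT motif is in 7.67% with the spacing TTCNNNGAA and in 6.25% with TTCNNNNGAA, and the AP-1 motif TGANTCA is in 6.34%. The Gfap and Vim windows share none of the 5. Among the other members, 1 of 2 Slc1a2 windows holds TTCNNNNGAA and the Gja1 window holds TGANTCA at base -58. S100b has 3 CCAAT matches, and 1 of 2 Aqp4 windows has a CCAAT match at base -20. These are matches of letters and not measured sites.

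Total counts ran from 15.4 to 51.7 M (megacounts) per library, with group means of 26.7 ± 5.93 (NAc H3.3WT), 26.6 ± 11.5 (NAc H3.3Q5A), 29.1 ± 7.36 (mPFC H3.3WT) and 36.6 ± 6.72 M (mPFC H3.3Q5A; SD, n = 7 each). In each region, the 2 libraries with the lowest median correlation over all genes to the others of their group were NAc H3.3WT replicate 17, NAc H3.3Q5A replicate 3, mPFC H3.3WT replicate 13 and mPFC H3.3Q5A replicate 34. Among mPFC libraries, H3.3Q5A replicate 34 and H3.3WT replicate 11 had the highest mean level of genes that are high in NAc, 1.82 and 1.2 on the log2 CPM scale, against at most 0.94 in the other mPFC libraries. The region and virus differences of Gfap and Vim are given with and without these libraries where they moved by over 1.5 times. The titles also carry a mark, P1 or P2, of unstated meaning, and it entered each model as a term. Levels are CPM, the counts of a gene per megacount of its library scaled with TMM factors, and they compare libraries for one gene and not one gene with another, as no gene lengths were used.

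Gfap and Vim, the filament genes, were both higher in mPFC than in NAc and varied widely within mPFC. Gfap in NAc H3.3WT ran from 327 to 675 CPM with a median of 391 and a mean of 461 ± 126 (SD, n = 7). In NAc H3.3Q5A it ran from 334 to 702 CPM with a median of 546 and a mean of 525 ± 145 (SD, n = 7). The mPFC H3.3WT libraries ran from 487 to 1825 CPM with a median of 580 and a mean of 845 ± 476 (SD, n = 7). Within mPFC H3.3WT, 4 libraries (replicates 3, 6, 11 and 35) lay between 487 and 580 CPM, inside the range of NAc, and replicate 13 lay far above the next at 999 CPM. In mPFC H3.3Q5A, Gfap ran from 506 to 1630 CPM with a median of 1114 and a mean of 1109 ± 392 (SD, n = 7). There, 6 of 7 libraries exceeded every NAc library and replicate 4, at 506 CPM, did not. Across both viruses 9 of 14 mPFC libraries lay above the NAc maximum, and the regions overlapped through the other 5.

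Vim separated the regions more fully. It ran from 36.8 to 77.0 CPM (median 45.7, mean 51.1 ± 14.7, SD, n = 7) in NAc H3.3WT and from 35.5 to 77.5 CPM (median 48.3, mean 53.1 ± 13.8, SD, n = 7) in NAc H3.3Q5A. It ran from 68.1 to 187 CPM (median 92.7, mean 112 ± 42.8, SD, n = 7) in mPFC H3.3WT. In mPFC H3.3Q5A it ran from 66.1 to 228 CPM (median 143, mean 142 ± 49.4, SD, n = 7). In all, 12 of 14 mPFC libraries exceeded every NAc library, and the exceptions were H3.3WT replicate 6 and H3.3Q5A replicate 4, which were also the 2 lowest mPFC libraries for Gfap.

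**Figure D1:**
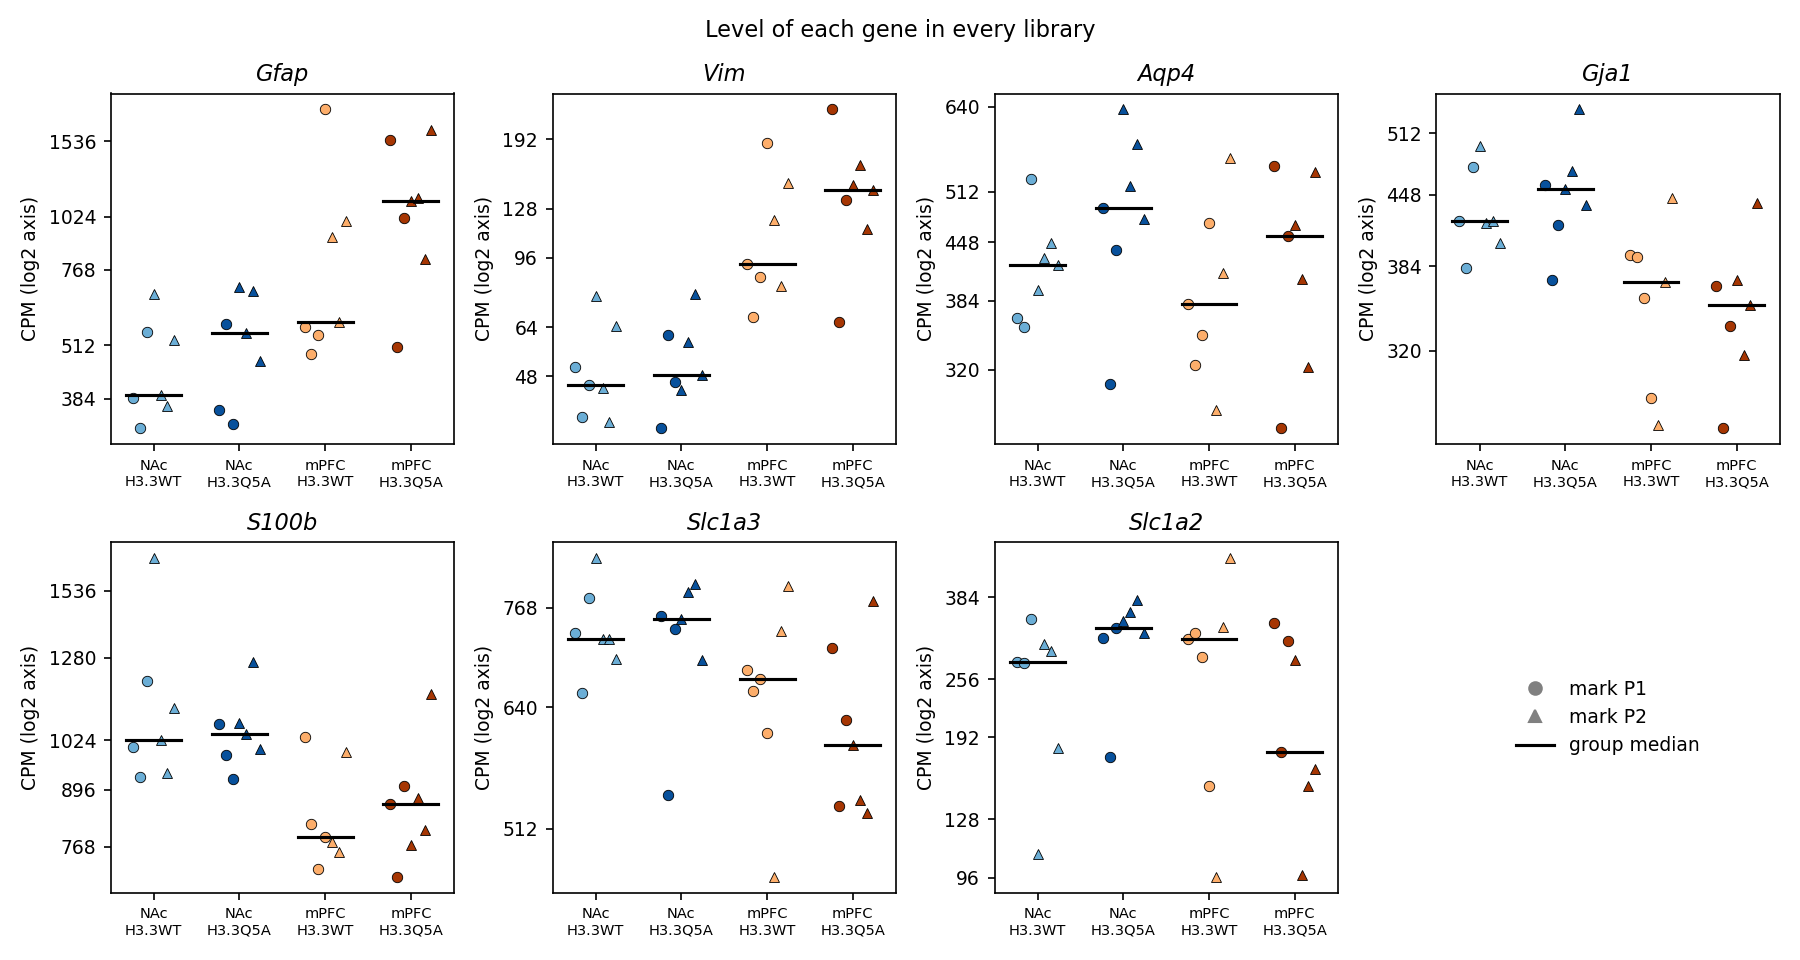
Level of each gene in CPM (log2 axis) in each of the 28 libraries by region and virus, with circles for mark P1, triangles for P2 and a line at the group median. Gfap and Vim sit higher in mPFC, where 9 and 12 of 14 libraries lie above every NAc library, while Gja1 and S100b sit lower there and the 2 viruses overlap for every gene.

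The 5 other genes varied over a narrower range or did not separate the regions. Gja1 ran from 383 to 498 CPM (median 423, mean 433 ± 40.2, SD, n = 7) in NAc H3.3WT and from 373 to 539 CPM (median 453, mean 451 ± 50.7, SD, n = 7) in NAc H3.3Q5A. In mPFC it ran from 272 to 445 CPM (median 371, mean 360 ± 60.9, SD, n = 7) with H3.3WT and from 271 to 441 CPM (median 353, mean 351 ± 52.6, SD, n = 7) with H3.3Q5A. For Gja1, 10 of 14 mPFC libraries lay below every NAc library, the opposite side to Gfap and Vim. S100b ran from 926 to 1678 CPM (median 1025, mean 1128 ± 262, SD, n = 7) in NAc H3.3WT and from 923 to 1265 CPM (median 1042, mean 1051 ± 108, SD, n = 7) in NAc H3.3Q5A. It ran from 722 to 1034 CPM (median 789, mean 841 ± 121, SD, n = 7) in mPFC H3.3WT and from 708 to 1161 CPM (median 861, mean 869 ± 145, SD, n = 7) in mPFC H3.3Q5A. For S100b, 11 of 14 mPFC libraries lay below every NAc library.

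The glutamate transporters differed from each other in how steady they were. Slc1a3 ran from 657 to 842 CPM (median 726, mean 738 ± 59.4, SD, n = 7) in NAc H3.3WT and from 545 to 803 CPM (median 752, mean 726 ± 87.2, SD, n = 7) in NAc H3.3Q5A. It ran from 469 to 799 CPM (median 674, mean 662 ± 104, SD, n = 7) in mPFC H3.3WT and from 527 to 777 CPM (median 597, mean 616 ± 97.0, SD, n = 7) in mPFC H3.3Q5A. The regions overlapped broadly, with 4 of 14 mPFC libraries below every NAc library. Slc1a2 ran from 108 to 344 CPM (median 278, mean 255 ± 81.5, SD, n = 7) in NAc H3.3WT and from 174 to 378 CPM (median 329, mean 317 ± 66.6, SD, n = 7) in NAc H3.3Q5A. It ran from 96.3 to 467 CPM (median 312, mean 281 ± 123, SD, n = 7) in mPFC H3.3WT and from 97.3 to 337 CPM (median 179, mean 217 ± 91.5, SD, n = 7) in mPFC H3.3Q5A. Every group of Slc1a2 overlapped every other. Aqp4, the endfoot channel, ran from 358 to 529 CPM (median 422, mean 421 ± 57.8, SD, n = 7) in NAc H3.3WT and from 308 to 636 CPM (median 490, mean 493 ± 105, SD, n = 7) in NAc H3.3Q5A. It ran from 288 to 559 CPM (median 380, mean 398 ± 92.8, SD, n = 7) in mPFC H3.3WT and from 274 to 548 CPM (median 455, mean 431 ± 104, SD, n = 7) in mPFC H3.3Q5A, and its 4 groups overlapped.

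Gfap, Vim and Slc1a2 had the widest spread between libraries of the 7 genes in both regions. Within mPFC the coefficient of variation (SD over mean, n = 14) was 45.1% for Gfap, 37.04% for Vim and 43.9% for Slc1a2, and 15.1% to 23.2% for S100b, Gja1, Slc1a3 and Aqp4. Within NAc it was 27.4% for Gfap, 26.4% for Vim and 27.4% for Slc1a2, against 9.83% for Slc1a3, 10.2% for Gja1, 18.03% for S100b and 19.6% for Aqp4. The biological coefficient of variation fitted by edgeR with virus and mark in the model put Gfap at the 95th percentile of all genes in mPFC, Vim at the 91.9th and Slc1a2 at the 95.5th. In NAc they stood at the 80.9th, 79.9th and 89.9th percentiles. Slc1a3 and Gja1 stood at the 33.9th and 30.9th percentiles in NAc and at the 58.9th and 58.3rd in mPFC. Aqp4 lay between, at the 61.0th in NAc and the 78.6th in mPFC, and S100b at the 57.9th and 54.1st.

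The region comparison asked where each gene was higher, with both viruses weighted equally over all 28 libraries. Gfap in NAc was 0.499 times its level in mPFC (95% confidence interval 0.379 to 0.656) and Vim 0.407 times (0.320 to 0.517). On the log2 scale of NAc over mPFC these are -1.004 (SE 0.19) for Gfap, at an adjusted p of 5.54e-05, and -1.30 (SE 0.17) for Vim, at an adjusted p of 1.82e-07 (edgeR quasi-likelihood test, Benjamini-Hochberg over all genes). Of the other members, S100b (log2 difference 0.34, SE 0.08, adjusted p 0.000877), Gja1 (0.30, SE 0.07, adjusted p 0.000536) and Slc1a3 (0.19, SE 0.07, adjusted p 0.0238) were higher in NAc. Aqp4 (0.12, SE 0.11, adjusted p 0.332) and Slc1a2 (0.22, SE 0.21, adjusted p 0.359) did not pass, with intervals of -0.10 to 0.35 and -0.21 to 0.65.

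So 5 of 7 genes were called, 3 higher in NAc and 2 higher in mPFC. The regions differ in much of their RNA: 67.4% of all genes tested were called, 33.5% higher in NAc and 33.9% higher in mPFC, and 5 of 7 is near that background. With a log2 difference of at least 1 also required, Gfap and Vim were called, 2 of 7, against 12.8% of all genes in either direction and 7.19% higher in mPFC. The median difference of the 7 was 0.19, beside -0.0023 over all genes. Gfap lies at that fold limit, and its difference was -0.92 with limma voom, -0.98 without the mark term and -0.83 without mPFC H3.3WT replicate 13, still called by adjusted p in each. Within the P1 libraries alone Gfap differed by -1.16 (adjusted p 0.0178, edgeR) and Vim by -1.44 (adjusted p 0.00175). Within P2 alone the differences were -0.87 (adjusted p 0.00101, edgeR) for Gfap and -1.19 (adjusted p 7.49e-05) for Vim. Slc1a3 passed in neither mark by itself (0.13, adjusted p 0.259 in P1, and 0.24, adjusted p 0.0991 in P2, edgeR). Without the 2 least correlated libraries of each region Gfap differed by -0.95 and Vim by -1.32, and without the 2 mPFC libraries that had the most NAc-high RNA by -1.08 and -1.35.

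The ratio of one gene to another within a library does not depend on how the library was scaled. Gfap over Slc1a3 in CPM ran from 0.453 to 1.05 in NAc and from 0.740 to 2.99 in mPFC, where 9 of 14 libraries exceeded every NAc library. Vim over Slc1a3 ran from 0.0468 to 0.112 in NAc and from 0.103 to 0.320 in mPFC, with 12 of 14 above. The ratio of Gfap to Aqp4 ran from 0.734 to 1.86 in NAc and from 1.40 to 3.87 in mPFC, with 8 of 14 above. Gfap over Slc1a2, both variable genes, ran from 1.01 to 6.26 in NAc and from 1.52 to 12.1 in mPFC, with 4 of 14 above. Gja1 over Slc1a3 ran from 0.57 to 0.69 in NAc and from 0.474 to 0.671 in mPFC, with 0 of 14 mPFC libraries above the NAc range and 8 of 14 below it. Slc1a2 over Slc1a3 ran from 0.128 to 0.471 in NAc and from 0.180 to 0.584 in mPFC, with 5 of 14 above. The 2 filament genes did not shift equally. Gfap over Vim ran from 7.20 to 15.9 in NAc and from 6.08 to 11.4 in mPFC, with 8 of 14 below the NAc range. These ratios describe unequal levels between regions and do not show that any of the genes was constant.

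**Figure D2:**
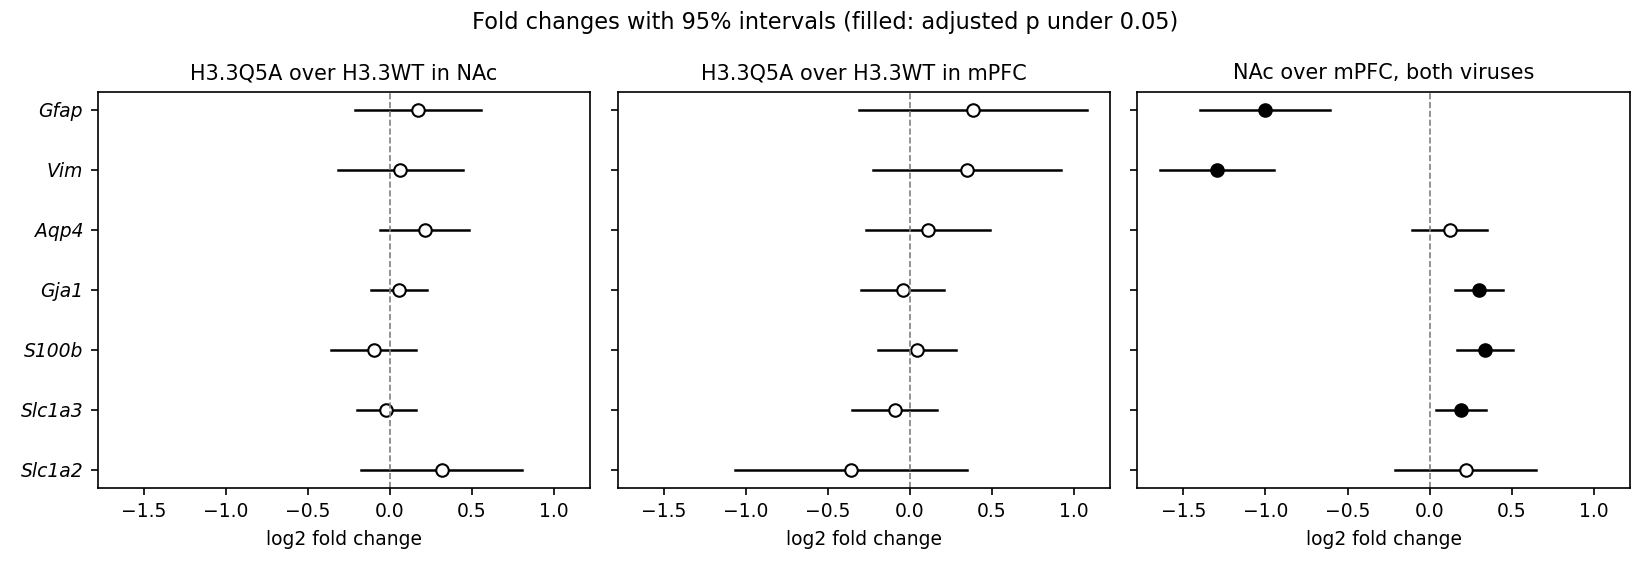
Log2 fold change of each gene with its 95% confidence interval for H3.3Q5A over H3.3WT in NAc and in mPFC and for NAc over mPFC, with filled points at an adjusted p under 0.05. The virus intervals of all 7 genes include 0 in both regions, and in the region panel Gfap (-1.004) and Vim (-1.30) lie on the opposite side of 0 from Gja1, S100b and Slc1a3.

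The virus comparison in NAc asked whether the genes differed between H3.3Q5A and H3.3WT. None of the 7 was called by edgeR, DESeq2 or limma voom, and none had an unadjusted p under 0.05 by any of the 3. Across all genes edgeR called 0 of 15315 (0%), with 7.84% at an unadjusted p under 0.05, while DESeq2 called 9 and voom 0. The Gfap log2 difference was 0.17 (SE 0.18, 95% confidence interval -0.21 to 0.56, adjusted p 0.791, edgeR) and that of Vim 0.064 (SE 0.18, -0.32 to 0.44, adjusted p 0.933). Without H3.3WT replicate 17 these were 0.26 for Gfap and 0.17 for Vim, and without H3.3Q5A replicate 3 they were 0.079 and -0.024. The intervals were narrowest for Gja1 (0.057, -0.11 to 0.23) and Slc1a3 (-0.023, -0.20 to 0.16). The interval of S100b was -0.36 to 0.16 around -0.099, that of Aqp4 -0.059 to 0.48 around 0.21, and that of Slc1a2 -0.17 to 0.81 around 0.32. The Slc1a2 value was 0.16 without H3.3WT replicate 17 and 0.45 (p 0.0440, adjusted 0.657, edgeR) without H3.3Q5A replicate 3. In P2 alone Slc1a2 differed by 0.65 (p 0.0454, adjusted 0.827, edgeR). That of Aqp4 was 0.38 (p 0.0057, adjusted 0.827, edgeR) in P2 alone and -0.026 in P1 alone. With 1 library left out, Aqp4 ran from 0.15 without H3.3Q5A replicate 18 to 0.31 (p 0.0117, adjusted 0.7765, edgeR) without H3.3WT replicate 14. Without H3.3Q5A replicate 3 it was 0.30 (p 0.0137, adjusted 0.657, edgeR). Without the 2 least correlated libraries, a removal chosen after seeing the data, Aqp4 differed by 0.27 and Slc1a2 by 0.29. The median of the 7 was 0.064, beside 0.0054 over all genes.

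In mPFC, too, none of the 7 was called by edgeR, DESeq2 or voom, and none had an unadjusted p under 0.05 by any of them. Across all genes edgeR called 0 of 15485 (0%), with 7.89% at an unadjusted p under 0.05, DESeq2 called 8 and voom 0. Gfap and Vim had medians 1114 and 143 CPM with H3.3Q5A against 580 and 92.7 CPM with H3.3WT, but the libraries of the 2 viruses overlapped over nearly their whole range. The log2 difference was 0.39 for Gfap (SE 0.33, 95% confidence interval -0.31 to 1.08, adjusted p 0.694, edgeR) and 0.35 for Vim (SE 0.27, -0.22 to 0.92, adjusted p 0.672). The Gfap interval includes both 0 and a 2-fold higher level with H3.3Q5A. These values moved with single libraries. Without mPFC H3.3WT replicate 13 the differences were 0.72 for Gfap (p 0.00873, adjusted 0.365, edgeR) and 0.53 for Vim (p 0.0422, adjusted 0.378). Without H3.3Q5A replicate 2 they were 0.21 for Gfap (adjusted p 0.844, edgeR) and 0.11 for Vim (adjusted p 0.89). Without the 2 least correlated mPFC libraries, H3.3WT replicate 13 and H3.3Q5A replicate 34, Gfap differed by 0.81 and Vim by 0.60, and neither was called over all genes. These 2 values are given without a p-value, because the removal was chosen after seeing the data. The median correlation used for it also went with Gfap (r -0.73) and Vim (r -0.64) in mPFC, and replicate 13 had the highest Gfap of its group. Without the 2 libraries with the most NAc-high RNA Gfap differed by 0.36 and Vim by 0.34. The others were -0.36 for Slc1a2 (-1.07 to 0.35), 0.11 for Aqp4 (-0.26 to 0.49), -0.092 for Slc1a3 (-0.35 to 0.16), 0.046 for S100b (-0.19 to 0.28) and -0.044 for Gja1 (-0.30 to 0.21). The Slc1a2 value was -0.51 without H3.3WT replicate 21 and -0.099 without H3.3WT replicate 36. The median of the 7 was 0.046, beside 0.0023 over all genes.

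The study's title sets the 2 regions against each other, so the virus effect in NAc minus that in mPFC was tested for each gene. None of the 7 passed (adjusted p 0.904 to 0.973, edgeR), and none had an unadjusted p under 0.05 by edgeR, DESeq2 or voom. Across all genes edgeR called 0 of 15635 (0%), with 5.26% at an unadjusted p under 0.05, and DESeq2 and voom called 0. The largest difference among the 7 was that of Slc1a2, at 0.70 (SE 0.42, 95% confidence interval -0.16 to 1.56), whose estimate was above 0 in NAc and below 0 in mPFC. It was 1.43 (p 0.0342, adjusted 0.591, edgeR) in the P2 libraries alone and -0.19 in P1 alone. Gfap differed by -0.17 (SE 0.38, -0.96 to 0.61) and Vim by -0.26 (SE 0.33, -0.94 to 0.42). Without mPFC H3.3WT replicate 13 these were -0.54 for Gfap and -0.46 for Vim, and without mPFC H3.3Q5A replicate 2 they were -0.019 and -0.049. Without the 2 least correlated libraries of each region, a removal chosen after seeing the data, the Gfap value was -0.63 and that of Vim -0.50. Neither was called, and no p-value is given for the same reason as in mPFC. The median of the 7 was 0.085, beside -0.00092 over all genes.

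Whether Gfap and Vim vary apart from the other genes was examined from library to library, by the correlation of log2 CPM over the 14 libraries of a region. P-values are from 2-sided permutation tests with 100000 resamples, adjusted over 42 pairs (21 per region). In mPFC Gfap and Vim rose and fell together, with Pearson r 0.94 (p 1e-05, the smallest the resamples can give, adjusted 0.00042, permutation test) and Spearman rho 0.91 (adjusted 0.00126). Leaving out the 2 libraries with Gfap farthest from the median gave r 0.92, and r was 0.97 within P1, 0.83 within P2, 0.97 with H3.3WT and 0.90 with H3.3Q5A. The widest gap in Gfap among the mPFC libraries lies between 580 and 817 CPM, and another lies between 1134 and 1548 CPM. Below the widest gap are 5 libraries (4 H3.3WT, 1 H3.3Q5A) and above it 9. Among those 9 alone r was 0.76 and rho 0.73, given without a test because the gap was found in these values. In NAc the correlation of Gfap with Vim was r 0.73 (adjusted p 0.0206, permutation test), and its Spearman rho of 0.58 did not pass (adjusted p 0.089). It was 0.71 without the 2 farthest libraries, 0.66 within P1 and 0.69 within P2.

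**Figure D3:**
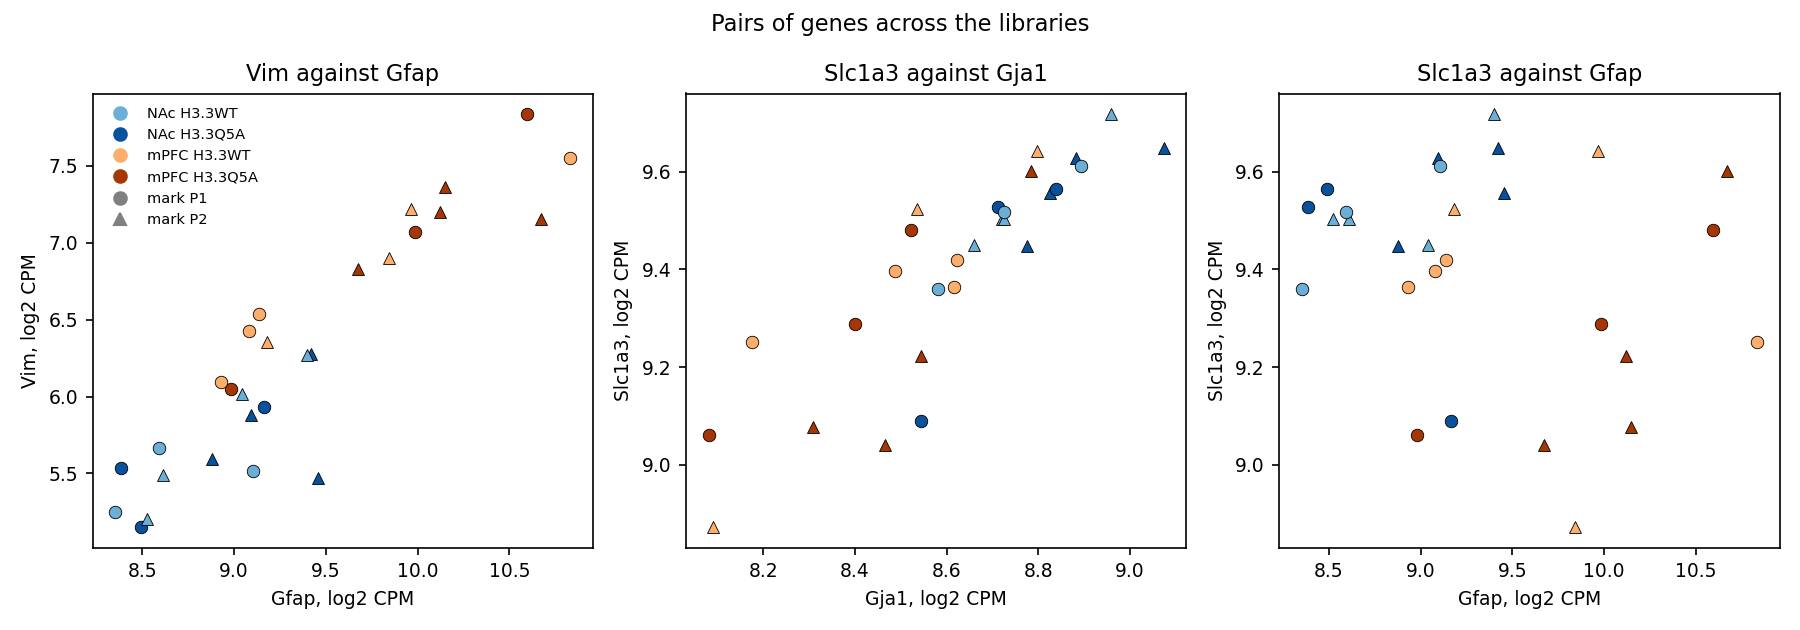
Log2 CPM of Vim against Gfap, of Slc1a3 against Gja1 and of Slc1a3 against Gfap in the 28 libraries, coloured by region and virus, with circles for mark P1 and triangles for P2. Vim rises with Gfap (r 0.94 in mPFC, 0.73 in NAc) and Slc1a3 with Gja1 (0.83 and 0.85), whereas Slc1a3 with Gfap gives 0.09 and 0.23 over both viruses, with r 0.80 in mPFC H3.3Q5A and in NAc H3.3WT and -0.27 and -0.026 in the other groups.

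The other genes did not all vary together, and some went with a filament gene. Slc1a3 and Gja1 were correlated in both regions, with r 0.85 in NAc (adjusted p 0.00126, permutation test) and 0.83 in mPFC (adjusted p 0.0035), and within each mark r was 0.86 to 0.91. Among the 10 pairs of Slc1a2, Slc1a3, Gja1, S100b and Aqp4, 5 passed in each region, with a median r of 0.60 in NAc and 0.61 in mPFC. The lowest r was that of Slc1a2 with S100b in both regions, at -0.53 in NAc (Spearman rho 0.17) and 0.14 in mPFC, and neither passed. In NAc that r was 0.16 without the 2 libraries with Slc1a2 farthest from the median. Of the 10 pairs that join Gfap or Vim to one of those 5, 2 passed in each region, with a median r of 0.31 in NAc and 0.092 in mPFC. The difference between these medians was not tested, as pairs share genes and libraries. The share of all gene pairs that would pass was not computed, so these counts have no background. With group means subtracted over the 28 libraries, 11.9% of other genes had a higher r with Slc1a2 than Slc1a3 did. For Gja1 and Aqp4 with Slc1a2 it was 15.7% and 15.8%. For Aqp4 with Slc1a3 and with Gja1, 0.13% and 0.88% of genes were higher.

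The pairs of a filament gene that passed were not the same in the 2 regions. In mPFC they were those with Aqp4, with r 0.71 to Gfap (adjusted p 0.0206, permutation test) and 0.73 to Vim (adjusted p 0.0206). Within the marks these were 0.89 and 0.96 in P1 but 0.47 and 0.40 in P2. In NAc they were those with S100b, with r 0.68 to Gfap (adjusted p 0.0173, permutation test) and 0.66 to Vim (adjusted p 0.0234). The Vim with S100b relation rests on few libraries, as r fell to 0.26 without the 2 farthest and its Spearman rho did not pass (adjusted p 0.205, permutation test). Slc1a2 had r below 0 with the filament genes without passing, at -0.26 with Gfap in NAc (Spearman rho 0.20) and -0.27 in mPFC. With Vim it had -0.48 in NAc, or -0.035 without the 2 farthest libraries, and -0.15 in mPFC. Over the 7 mPFC H3.3Q5A libraries Slc1a2 had r 0.20 with Gfap and 0.27 with Vim. Gfap with Slc1a3 gave 0.23 in NAc and 0.09 in mPFC, and Gfap with Gja1 0.54 and 0.02, none of which passed. The values within a virus lay on both sides of these. In mPFC Gfap with Slc1a3 gave r -0.27 over the 7 H3.3WT and 0.80 over the 7 H3.3Q5A libraries, and Gfap with Gja1 -0.52 and 0.84. In NAc Gfap with Slc1a3 gave 0.80 with H3.3WT and -0.026 with H3.3Q5A, and Gfap with Gja1 0.80 and 0.32. For H3.3WT and H3.3Q5A in turn, Gfap with Aqp4 in mPFC gave 0.49 and 0.95, and Gfap with S100b in NAc 0.93 and 0.61. Differences in these correlations between viruses or regions were not tested.

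**Figure D4:**
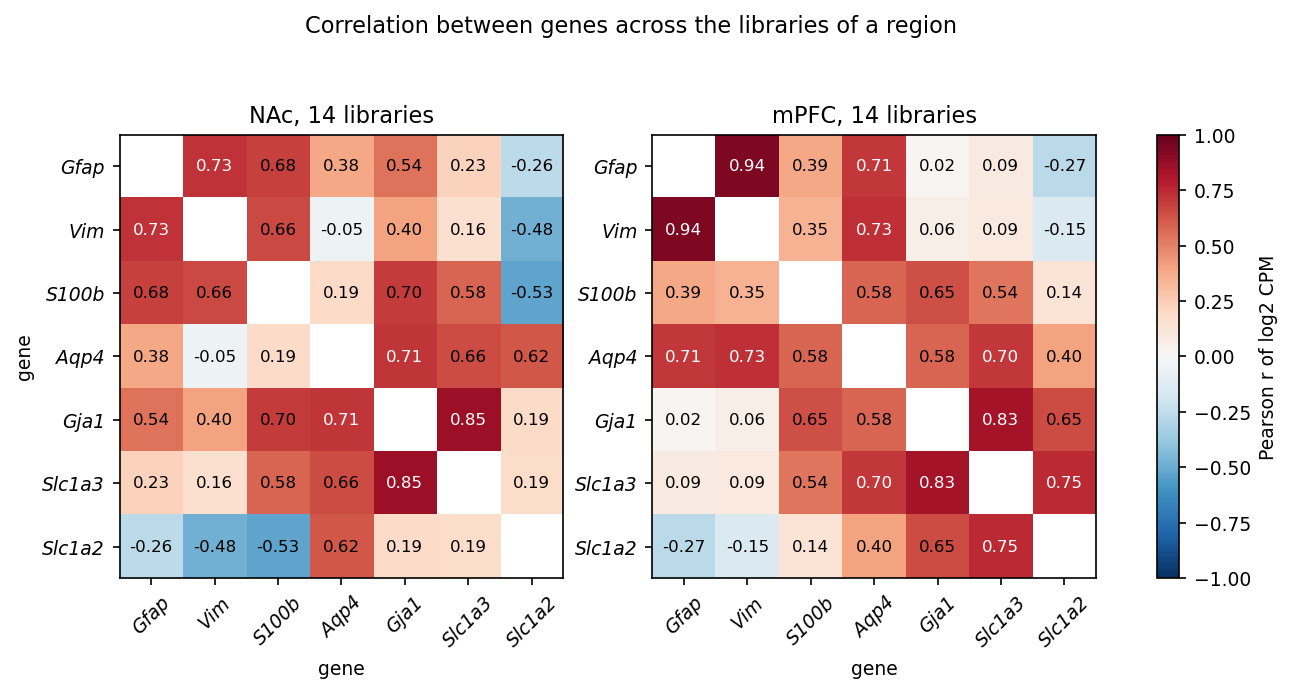
Pearson r of log2 CPM for each pair of genes across the 14 NAc and the 14 mPFC libraries, on a colour scale from -1 to 1. Gfap with Vim gives the highest value in mPFC (0.94) and Slc1a3 with Gja1 the highest in NAc (0.85). Slc1a2 has r below 0 with Gfap and Vim in both regions and, lowest, with S100b in NAc (-0.53). The NAc values rest on few libraries: with S100b r was 0.16 without the 2 farthest, and with Gfap the Spearman rho was 0.20.

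In single libraries the genes moved together or apart. mPFC H3.3WT replicate 21 had the lowest Slc1a2 (96.3 CPM), Slc1a3 (469), Gja1 (272) and Aqp4 (288) of its group with Gfap at 919 CPM, the third highest of the 7. mPFC H3.3WT replicate 36, with Gfap at 999 CPM, had the highest Slc1a2 (467), Slc1a3 (799), Gja1 (445) and Aqp4 (559) of the group. mPFC H3.3Q5A replicate 4 was lowest of its group in Vim, Gfap, Aqp4, Gja1 and S100b together. NAc H3.3WT replicate 17 had the highest Gfap, Vim, S100b, Slc1a3 and Gja1 of its group and the lowest Slc1a2, at the smallest total count of all libraries.

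Set against all 15634 other genes, over the 28 libraries after the mean of each group was subtracted, Vim had the highest correlation with Gfap of any gene (r 0.86), and Gfap ranked 5th for Vim. Gja1 ranked 2nd for Slc1a3 and Slc1a3 2nd for Gja1 (r 0.85), and the same gene, ENSRNOG00000014254, ranked first for both (r 0.89 and 0.86). For Vim the first was ENSRNOG00000007457 (r 0.88). Slc1a2 ranked 11612th for Gfap. S100b had r 0.51 with Gfap and 0.48 with Vim, beside 0.67 with Gja1, 0.56 with Slc1a3, 0.44 with Aqp4 and -0.11 with Slc1a2. These likenesses are descriptions, as library composition is shared by all genes of a library. An r of 0.8 or more was reached by 23 genes with Gfap, 26 with Vim, 29 with S100b, 9 with Slc1a3, 8 with Gja1 and 7 with Aqp4, but by 356 with Slc1a2, and a further 130 genes had -0.8 or less with it. Slc1a2 also had the strongest correlation of the 7 with the first principal component of all genes (18.9% of the variance), r 0.72, against -0.53 for Gfap, -0.52 for Vim and -0.51 for S100b. NAc H3.3WT replicate 17 (-65.1) and NAc H3.3Q5A replicate 3 (-31.5), with the lowest Slc1a2 of their groups, had the most extreme scores on that component, and the others lay between -27.1 and 15.7.

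Measures of each library (total count, TMM factor, NAc-high and mPFC-high level, median correlation) were set beside the 7 genes in each region, 70 correlations in all. In mPFC Gfap had r -0.73 to the median correlation of a library with the others of its group (p 0.0024, adjusted 0.084, permutation test). This was -0.92 within P1 and -0.30 within P2, and Gfap had r 0.64 to the TMM factor (adjusted p 0.194, permutation test). Vim in mPFC had r -0.64 to the median correlation (adjusted p 0.194, permutation test) and 0.59 to the TMM factor (adjusted p 0.248). Slc1a2 in mPFC had r -0.63 to the TMM factor (adjusted p 0.194, permutation test) and 0.43 to the median correlation (adjusted p 0.403). In NAc Slc1a2 had r 0.83 to the median correlation (p 0.0048, adjusted 0.112, permutation test), which rests on few libraries: it was -0.047 without the 2 farthest, and the Spearman rho was 0.32. One of the 70 passed, Aqp4 with the TMM factor in NAc (r 0.76, adjusted p 0.0224, permutation test), and its Spearman rho did not (adjusted p 0.121). The part of library composition in the spread of Gfap and Vim, and in their correlation, was not tested. Markers of other cell types could not be read for want of symbols, so the part of other cells that make Vim was not tested.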

How the data were processed

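Polyadenylated RNA from 28 tissue samples was extracted with Trizol, cleaned on RNeasy Micro columns and made into unstranded TruSeq RNA V2 libraries, per the labels' protocols. The submitters' processing notes name HISAT2 2.1.0, featureCounts 2.0.1, DESeq2 1.6.3 and build rn6. The authors deposited raw read counts by Ensembl ID without normalization, and each of the 15635 genes has at least 10 counts in at least 14 libraries. Reads shared with an overlapping gene on the other strand cannot be separated. Groups, replicate numbers and the P1 or P2 mark were read from the titles. The P1 and P2 libraries number 3 and 4 in each NAc group and in mPFC H3.3Q5A, and 4 and 3 in mPFC H3.3WT. The animal behind a library is not labelled, and the p-values therefore speak only of library-to-library spread, which may be technical. Libraries of a group differed beyond sampling noise in every pair (chi-square over degrees of freedom of 7.77 or more).

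Each comparison was fitted on the whole table in edgeR 4.0.16 (R 4.3.3, quasi-likelihood test), with TMM factors, the mark as a term and Benjamini-Hochberg adjustment, called at an adjusted p under 0.05. The virus was tested within a region on its 14 libraries after filterByExpr, which removed 320 genes in NAc and 150 in mPFC and none of the 7. The interaction and the region difference used all 28 libraries. Intervals are 95% from the SE of the fit. Log2 CPM used a prior count of 2. Genes high in NAc (258) had an adjusted p under 0.05 and a log2 difference of at least 2 between regions, and the 7 genes were left out of them. The scripts were tested on simulated counts. Alternatives were DESeq2 1.42.0, limma voom 3.58.1, DESeq2 size factors, no filter, no mark term, each mark alone and each library left out. Leaving out the libraries that stood apart, and centring on group means, were added after seeing the data. Motifs were searched in RefSeq GRCr8 windows, of which all 7 genes have at least 1. The named genes were the 7 and, for likeness, the 2 most correlated other genes of each, of which 2 IDs are printed. The members and lists were chosen with earlier results of these data known. Lists of other astrocyte genes, other reactive genes and cell type markers were written as symbols, 0 of which could be matched to IDs, so they are not analysed here.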

Additional observations from a re-analysis of the deposited data

Results flagged for a closer look

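In 4 of the 28 combinations of gene and group, 1 library was far from the other 6 by Dixon's test at 95%, where chance gives about 1 in 20. Gfap in mPFC H3.3WT replicate 13 was 1825 CPM, and the next highest of the group was 999 CPM. S100b in NAc H3.3WT replicate 17 was 1678 CPM, and the next was 1204 CPM. Slc1a2 in NAc H3.3Q5A replicate 3 was 174 CPM against 314 CPM in the next lowest, and Slc1a3 in the same library was 545 CPM against 698 CPM. These 3 libraries are among the 4 with the lowest median correlation to the others of their group. Their totals were 38.8, 15.4 and 19.98 M counts.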

How the results depend on the processing

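With any 1 library left out, the count of members called did not change in any of the 4 comparisons. Under the other alternatives it changed in the region difference, from 5 to 4 with P1 alone and to 4 with P2 alone, where Slc1a3 lost its call. Of 245 fold changes under alternatives other than leaving out 1 library, 230 kept direction and side of the threshold. Over all genes, DESeq2 called 9 for the virus in NAc and 8 in mPFC, where edgeR called 0. The interaction gave 1 gene, none of the 7, without the 2 least correlated libraries of each region. With 1 library left out, NAc gave 0 to 1 genes, the 1 without H3.3WT replicate 12. The virus difference, never called, changed sign in NAc with P1 alone for Gfap (-0.0017), Aqp4 (-0.026), Slc1a2 (-0.15) and Gja1 (-0.041), with P2 alone for Slc1a3 (0.019), and without the 2 least correlated libraries for Slc1a3 (0.069) and S100b (0.024). In mPFC it changed sign with P1 alone for Slc1a2 (0.0495) and S100b (-0.023) and with P2 alone for Gja1 (0.047). The interaction changed sign with P1 alone for Aqp4 (-0.18), Slc1a2 (-0.19) and Slc1a3 (-0.021). With 1 library left out, the NAc ranges that cross 0 were -0.051 to 0.031 for Slc1a3, -0.15 to 0.015 for S100b and -0.043 to 0.17 for Vim. In mPFC they were -0.13 to 0.021 for Gja1 and -0.024 to 0.10 for S100b. Gfap with Vim kept r at 0.670 to 0.872 in NAc and 0.925 to 0.966 in mPFC. The cause of these changes was not tested. No paired analysis was possible because the 2 viruses share no replicate number within a region, and across regions only number 21 recurs for H3.3WT and 2 for H3.3Q5A. The part of depth in the width of the intervals was not tested.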
